A study of Rattus norvegicus with 6 samples.

Results

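The imprinted Dlk1-Dio3 microRNA cluster was followed in small RNA libraries of injured rat testicles. A miRNA was counted as a member when its number belongs to a fixed list of the miRNAs of this locus, with any letter or arm, and when its level was above 0 in at least 1 library. This gave 62 members from 41 precursor hairpins, out of 570 miRNAs above 0 and 764 listed. A further 25 miRNAs of the same numbers were at 0 in every library.

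The samples came from male Sprague Dawley rats that were either wild type or HO-1 knockout (HO-1-/-), lacking the enzyme heme oxygenase-1, which breaks down heme. Every animal had the left testicle turned clockwise by 720° for 2 h, after which blood flow was restored for 3 days, so both genotypes share the injury and there is no untwisted group here. Each genotype had 3 libraries, each made from 1 μg of total RNA of whole testicle. The labels give no age, do not describe the knockout allele, and do not say whether the 3 libraries came from separate animals or from pools. The p-values therefore rest on the spread from library to library, which may be technical. Library totals, which were recovered from the RPM values and not given by the labels, were between 8300536 and 10042673 miRNA reads. Levels are in RPM, reads per 1000000 miRNA reads, on which scale 3 reads are worth 0.299 to 0.361 RPM.

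The Dlk1-Dio3 locus is an imprinted domain in which the protein-coding genes Dlk1, Rtl1 and Dio3 are transcribed from the paternal chromosome, while long noncoding transcripts that begin with Meg3, and the miRNAs processed from them, come from the maternal chromosome. The miRNAs lie in groups along these transcripts: one between Meg3 and the part antisense to Rtl1, and a long distal array that begins with miR-379. In rodents they are known for high levels in embryo, placenta, brain, and mesenchymal and progenitor cells, and for lower levels in most adult organs.

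In these libraries 15 members from 9 precursors belonged to the Meg3-Rtl1 group, 3 members from 2 precursors (miR-341 and miR-370) to a small middle group, and 44 members from 30 precursors to the distal array. RefSeq gave a mature sequence (GRCr8) for 60 members, and miR-127-5p and miR-136-5p are named only. The 12 members with a mean of at least 1 RPM, plus miR-376b-3p, on which a later comparison turns, read as follows, 5′ to 3′, with the seed (bases 2 to 8, the part that pairs with target mRNAs) in capitals.
miR-127-3p: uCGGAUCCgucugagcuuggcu
miR-434-5p: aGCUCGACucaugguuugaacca
miR-434-3p: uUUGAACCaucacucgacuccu
miR-337-5p: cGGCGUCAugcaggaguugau
miR-370-3p: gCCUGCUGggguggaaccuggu
miR-379-5p: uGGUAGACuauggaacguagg
miR-411-5p: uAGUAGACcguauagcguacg
miR-494-3p: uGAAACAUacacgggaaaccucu
miR-543-3p: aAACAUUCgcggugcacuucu
miR-376b-3p: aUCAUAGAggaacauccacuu
miR-134-5p: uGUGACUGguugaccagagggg
miR-541-5p: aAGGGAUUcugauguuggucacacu
miR-409a-3p: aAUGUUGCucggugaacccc

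No seed is shared among these 13. Over the 60 sequences there were 58 seeds, and only the miR-299a and miR-299b pairs had one in common. These hairpins overlap on opposite strands. The listed miR-299b-3p is the first part of miR-299a-3p, so a read that ends within the shared stretch could come from either, while a full miR-299a-3p read carries further bases. How the authors assigned such reads is not stated.
miR-299a-3p: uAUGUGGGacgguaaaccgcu
miR-299b-3p: uAUGUGGGacgguaaac

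The members share a strand as well as a locus: 58 of the 60 lie on the plus strand of chromosome 6, the strand of Meg3. The window from 250 bases before to 50 bases after the RefSeq start of Meg3 (chr6:134273806-134274105, plus strand, GRCr8) is shown because Meg3 is the first noncoding transcript of the locus. No readout of this window was taken here. Capitals mark the matches to 4 motifs that were searched on both strands.
Meg3: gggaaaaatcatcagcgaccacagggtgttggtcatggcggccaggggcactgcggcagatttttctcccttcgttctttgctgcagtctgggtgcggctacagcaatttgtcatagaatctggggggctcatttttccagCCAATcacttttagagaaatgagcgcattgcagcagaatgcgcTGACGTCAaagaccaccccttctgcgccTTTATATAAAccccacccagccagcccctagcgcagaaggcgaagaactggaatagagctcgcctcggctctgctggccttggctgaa

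The TATA letters TATAAA matched at 38 and 34 bases before the start on opposite strands, and 14.2% of 33469 rat promoters of the same length hold them. CCAAT matched at 109 bases before the start (37.5% of promoters). The cAMP response element TGACGTCA matched at 66 bases before the start (1.83% of promoters), and its core TGACG, which overlaps it, occurs in 21.2%. These are matches of letters, and no binding was measured.

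One library stood apart from the others in the cluster. The summed level of the 62 members was 249.47, 22.49 and 25.82 RPM in wild type libraries 1, 2 and 3, and 31.53, 34.68 and 32.19 RPM in knockout libraries 1, 2 and 3. Wild type library 1 was thus 7.19-fold above the highest of the others, while those lay within a narrow band. In reads the cluster held 2505, 205 and 244 in wild type and 262, 340 and 290 in knockout. Members above 0 numbered 57, 36 and 39 in wild type and 34, 47 and 39 in knockout.

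**Figure D1:**
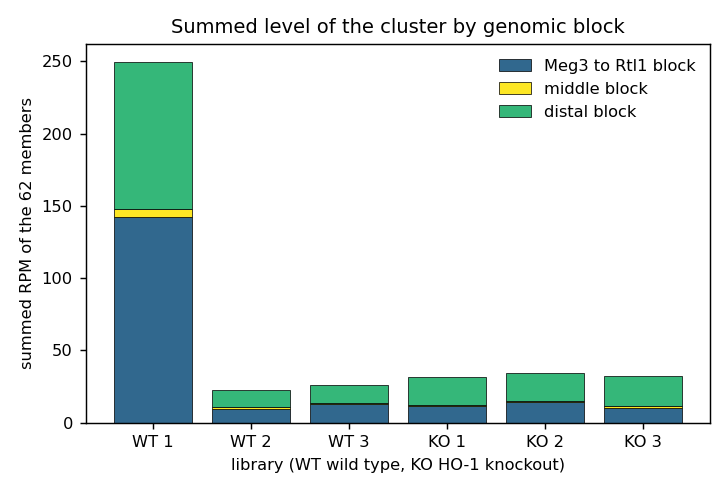
Summed RPM of the 62 members (vertical axis) in each of the 6 libraries (horizontal axis), stacked by genomic group. Wild type library 1 reaches 249.47 RPM, and the others lie between 22.49 and 34.68 RPM.

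All 3 groups of the locus showed it. The Meg3-Rtl1 group summed to 142.41 RPM in wild type library 1 against 9.87 to 14.17 RPM in the others, a 10.05-fold gap to the next. The middle group stood at 5.48 against 0.64 to 1.13 RPM, and the distal array at 101.58 against 11.52 to 20.86 RPM, with gaps of 4.85-fold and 4.87-fold. It did not rest on the most abundant member, since without miR-127-3p the sum was still 141.03 against 15.59 to 26.32 RPM. By precursor, wild type library 1 was highest for 9 of 9 hairpins of the Meg3-Rtl1 group, 2 of 2 of the middle group and 26 of 30 of the distal array. For Mir667, Mir539, Mir668 and Mir496, read in that library alone, this was fixed in advance.

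By member, wild type library 1 was the highest library for 51 of 62, where it was highest for 38.6% of all 570 miRNAs. It was at least 2-fold above every other library for 45 of 62 members, against 13.3% of all miRNAs. Among 325 miRNAs outside the cluster with means in the members' range, those counts were 89 and 23. Only 54 of the 62 members, and 554 of the 570 miRNAs, were above 0 in some other library. The rest were read in wild type library 1 alone, so for them both outcomes were fixed in advance. They also enter the medians that follow. For each library in turn, the ratio to the mean of the other 5 (0.1 RPM added to both) had a median over the members of 4.58, 0.479 and 0.529 in wild type libraries 1, 2 and 3, and of 0.564, 0.716 and 0.568 in knockout. Over all miRNAs those medians were 1.23, 1.03 and 0.870, and 0.770, 0.911 and 0.833. The values below 1 of the members in the other libraries include wild type library 1 in their denominator.

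**Figure D2:**
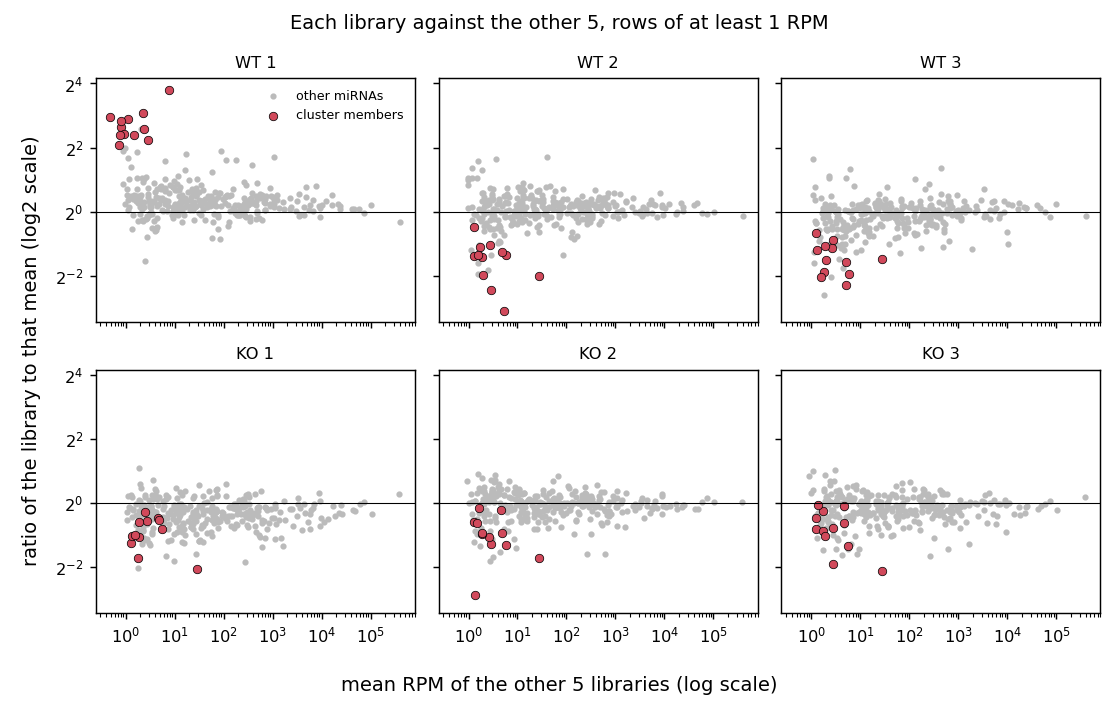
For each library, the ratio to the mean of the other 5 (vertical, log2 scale) against that mean in RPM (horizontal, log scale), for miRNAs with a mean of at least 1 RPM; red points are the 12 cluster members and grey points the other 318 miRNAs. In wild type library 1 the members lie between 4.25 and 14.04, and 1 grey point reaches their range.

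Among the 318 miRNAs outside the cluster with a mean of at least 1 RPM, miR-224-5p alone reached the lowest ratio of a member (4.25), with 12.75 RPM in wild type library 1 against 1.33 to 3.25 RPM; it is named here because of that value. Other miRNAs also differed in this library. A list of 17 miRNAs typical of smooth muscle cells and fibroblasts summed to 49253 RPM against 24120 to 39367 RPM, 1.25-fold above the next library, and 11 of the 17 were highest there. Within it, miR-199a-3p stood at 3513 against 655 to 1648 RPM, miR-214-3p at 60.4 against 9.04 to 28.3 RPM and miR-10b-5p at 332 against 72.0 to 110 RPM. These 3 are among those of the list that stood out most there. By contrast, miR-143-3p stood at 13412 against 5023 to 11938 RPM. miR-125b-5p had more reads in wild type library 3 (51731) than in wild type library 1 (50812). Germ cell miRNAs of the miR-34b/c and miR-449 family summed to 52.8 against 26.8 to 38.8 RPM, with 6 of 8 above 0. The part of these cells in the cluster's level was not tested. In bulk tissue, fewer cells of a type and less RNA per cell cannot be told apart.

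The miRNA content went against the tissue label in several respects. The gonadal miR-202-5p stood at only 0.71 to 2.22 RPM and the X-linked testis cluster at 1.22 to 4.12 RPM in sum, with 11 of 23 of its miRNAs above 0. The liver miRNA miR-122-5p took 32.7% to 46.4% of all reads, with the lowest share in wild type library 1. The libraries are called testicle here because the labels do so. With miR-122-5p left out of the totals, the cluster in wild type library 1 was still 6.30-fold above the next library.

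The Meg3-Rtl1 group contains the miRNAs antisense to Rtl1, a retrotransposon-derived gene whose mRNA they pair with perfectly, and its 8 members within the Rtl1 span summed to 132.14, 8.11 and 12.14 RPM in wild type and to 10.84, 12.24 and 8.78 RPM in knockout. Most of this was miR-127-3p, the most abundant member, with 108.44, 6.90 and 9.81 RPM in wild type and 6.63, 8.36 and 6.45 RPM in knockout. Apart from wild type library 1, the genotypes overlapped for it. From its hairpin (GRCr8 chr6:134328454-134328550, plus strand), shown with the 3p arm in capitals, the 5p arm had 1.10 RPM at most.
Mir127: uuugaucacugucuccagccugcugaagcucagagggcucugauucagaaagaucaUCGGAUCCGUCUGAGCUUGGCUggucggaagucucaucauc

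The miR-434 hairpin (GRCr8 chr6:134330402-134330482, plus strand) released both arms in similar amounts and is shown with both in capitals.
Mir434: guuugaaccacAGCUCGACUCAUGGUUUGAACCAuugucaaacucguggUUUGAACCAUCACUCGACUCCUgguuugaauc

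The arm miR-434-3p had 8.96, 0.44 and 1.16 RPM in wild type and 2.05, 1.22 and 0.67 RPM in knockout. The arm miR-434-5p had 6.37, 0.44 and 0.63 RPM in wild type and 1.20, 0.92 and 0.89 RPM in knockout. For the 5p arm all 3 knockout libraries lay between wild type library 1 and the other wild type libraries. For miR-337-5p the levels were 5.48, 0.77 and 0.42 RPM in wild type and 0.48, 1.43 and 0.89 RPM in knockout, and for miR-493-5p they were 2.89, 0.22 and 0.53 RPM and 0.12, 0.10 and 0.44 RPM. Outside wild type library 1 the genotypes overlapped for both.

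In the middle group, miR-370-3p had 3.49, 0.88 and 0.53 RPM in wild type and 0.60, 0.82 and 0.89 RPM in knockout, again with overlap once the first library is set aside.

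In the distal array the precursors of miR-379, miR-411 and miR-541 had the highest means over the 6 libraries, in that order, which wild type library 1 weighs on. In knockout libraries 2 and 3, Mir541 was the highest, with 4.08 and 4.34 RPM over both arms against 3.27 and 3.44 RPM for Mir411 and 2.75 and 2.33 RPM for Mir379. miR-379-5p, encoded first, had 19.62, 2.19 and 1.48 RPM in wild type and 3.13, 2.24 and 2.22 RPM in knockout. miR-411-5p, from the next hairpin, had 14.44, 1.97 and 0.95 RPM in wild type and 3.25, 2.45 and 3.00 RPM in knockout. Both had every knockout library above wild type libraries 2 and 3 and below wild type library 1. For miR-379-5p, however, wild type library 2 and knockout library 3 held 20 reads each and differed only by their totals.

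miR-541-5p, near the far end of the array, had 13.54, 0.55 and 1.69 RPM in wild type and 3.37, 4.08 and 4.34 RPM in knockout. miR-376b-3p, of a family known for A-to-I editing of its precursors in brain, had 1.49, 0 and 0.21 RPM in wild type and 1.69, 0.92 and 1.11 RPM in knockout. It was the most abundant member for which wild type library 1 was not the highest of the 6. miR-134-5p, known for repressing Limk1 at neuronal dendrites, had 4.48, 0.44 and 0.74 RPM in wild type and 0.48, 0.10 and 0.67 RPM in knockout, so that outside wild type library 1 its genotypes overlapped.

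Among the other distal members of at least 1 RPM, miR-494-3p had 8.07, 1.31 and 1.48 RPM in wild type and 1.81, 1.12 and 1.56 RPM in knockout. miR-409a-3p had 5.48, 0.66 and 0.84 RPM in wild type and 0.84, 0.92 and 1.45 RPM in knockout. miR-543-3p had 4.48, 0.55 and 0.32 RPM in wild type and 0.72, 0.92 and 1.33 RPM in knockout. Only for miR-543-3p did every knockout library lie above wild type libraries 2 and 3. The remaining members were below a mean of 1 RPM: 23 of the 62 had at most 10 reads over all libraries, 40 were at 0 in at least 1 library and 22 were above 0 in every library. How large a difference could be detected in those with few reads was not worked out. The simulated data named below held changes of a fixed size only.

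**Figure D3:**
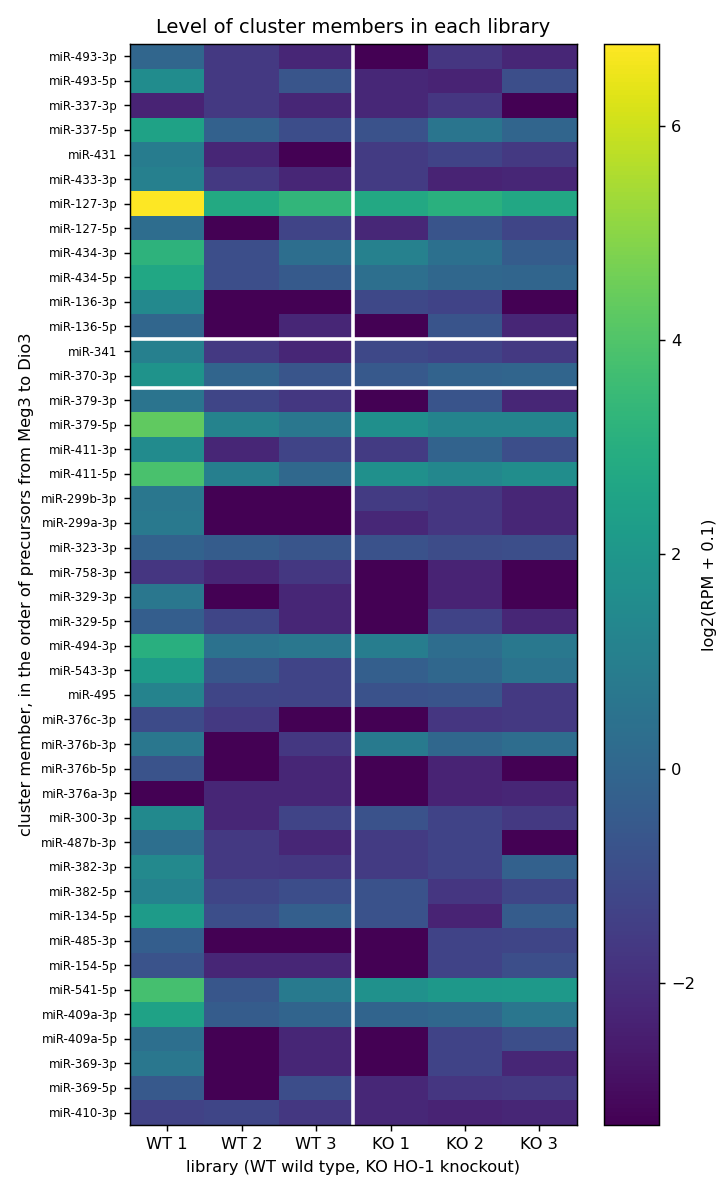
Level of each member as log2(RPM + 0.1) (colour) in the 6 libraries (columns), in genomic order from Meg3 to Dio3 (rows), for the 44 of 62 members above 0 in at least 3 libraries; white lines part the genotypes and the 3 genomic groups. The column of wild type library 1 is brighter than the rest in all 3 groups, with miR-127-3p at 108.44 RPM the brightest cell.

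The comparison of knockout with wild type was fitted for all 570 miRNAs with limma on log2(RPM + 1), a scale that understates changes of low miRNAs, with Benjamini-Hochberg adjusted p-values over all of them and a threshold of 0.05. It called 36 miRNAs (6.32%) and 0 of the 62 members. No member reached an unadjusted p below 0.05, and the lowest adjusted p of a member was 0.258. edgeR's quasi-likelihood test on recovered reads, with TMM scaling, called 10.7% of miRNAs and 0 members, with 4 members at an unadjusted p below 0.05. DESeq2 on the same reads called 12.6% and 0 members, with 1 member at an unadjusted p below 0.05 and no adjusted p for 44 of them.

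Of 11 lists of cell type markers, 7 had a lower sum in every knockout library than in any wild type library, 1 was higher and 3 overlapped. Among single miRNAs, 21.6% were lower and 4.39% higher in that way. miR-122-5p took 32.7% to 36.6% of reads in wild type and 40.2% to 46.4% in knockout. A larger share of it lowers the RPM of every other list, and the lists were not rescaled without it. The smooth muscle and fibroblast list (17 of 17 above 0) summed to 37467 to 49253 RPM in wild type and 24120 to 28668 RPM in knockout, and the endothelial list (3 of 3) to 25222 to 26982 and 19147 to 21287 RPM. The epithelial list (9 of 9) summed to 1015 to 1721 and 457 to 529 RPM, and the hepatocyte list (2 of 2) was higher in the knockout, at 403910 to 464870 against 328380 to 366900 RPM. Their part in the members' values was not tested.

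The median log2 change of the members in limma was -0.20, beside -0.12 over all miRNAs and -0.062 over other miRNAs in the members' range. Members read only in wild type library 1 had a value below 0 by construction. For miR-127-3p the log2 change was -1.38 (SE 0.88, adjusted p 0.43 by limma; edgeR -2.21, adjusted p 0.072). The authors' deposited table gives miR-127-3p a log2 fold change of -2.55 with p 0.0019. In that table miR-493-5p (p 0.045) is the other member below 0.05. Neither was called here, with all libraries (miR-493-5p adjusted p 0.39 by limma and 0.22 by edgeR) or without wild type library 1. The authors' p is not labelled as adjusted, so these are unlike thresholds. Unadjusted, edgeR with all libraries gave p 0.0087 for miR-127-3p and 0.042 for miR-493-5p, both also below 0.05. The unadjusted limma p was 0.16 and 0.13.

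The direction of the members' median and sum turned with wild type library 1, but not that of every member. Without it, 54 members remained above 0 in some library. Their median log2 change was 0.067, with 33 members above 0 and 21 below, where the median was -0.067 over all miRNAs. For miR-127-3p the log2 change stayed below 0, at -0.19 (SE 0.25, adjusted p 0.69 by limma). The summed cluster turned as the median did. Knockout over wild type was 0.330 with all libraries (32.8 ± 1.66 against 99.3 ± 130 RPM, SD, n = 3 each) and 1.36 with wild type libraries 2 and 3 alone. By group, the latter ratio was 1.03 for the Meg3-Rtl1 group, 1.27 for the middle group and 1.69 for the distal array.

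In the limma fit without wild type library 1, 24 of 554 miRNAs (4.33%) and 1 of 54 members were called, where 1.44% of miRNAs were called as higher in the knockout. That member, miR-376b-3p, was higher in the knockout by 1.01 on the log2(RPM + 1) scale (SE 0.19, adjusted p 0.037). With all 6 libraries its value was 0.62 (SE 0.34, adjusted p 0.35 by limma). The next, miR-541-5p, had 1.27 (SE 0.28, adjusted p 0.065 by limma), against 0.32 (SE 0.73, adjusted p 0.79 by limma) with all libraries. edgeR without the same library called 13% of miRNAs, 5.96% as higher in the knockout, and 3 members, all higher: miR-541-5p with a log2 change of 1.92 (adjusted p 0.00025), miR-376b-3p with 3.49 (adjusted p 0.0019) and miR-411-5p with 1.13 (adjusted p 0.042). For miR-376b-3p, wild type libraries 2 and 3 held 0 and 2 reads, so this fitted change depends on edgeR's prior count. The edgeR fit without this library was added after the data were seen, and both fits rest on 2 wild type libraries.

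**Figure D4:**
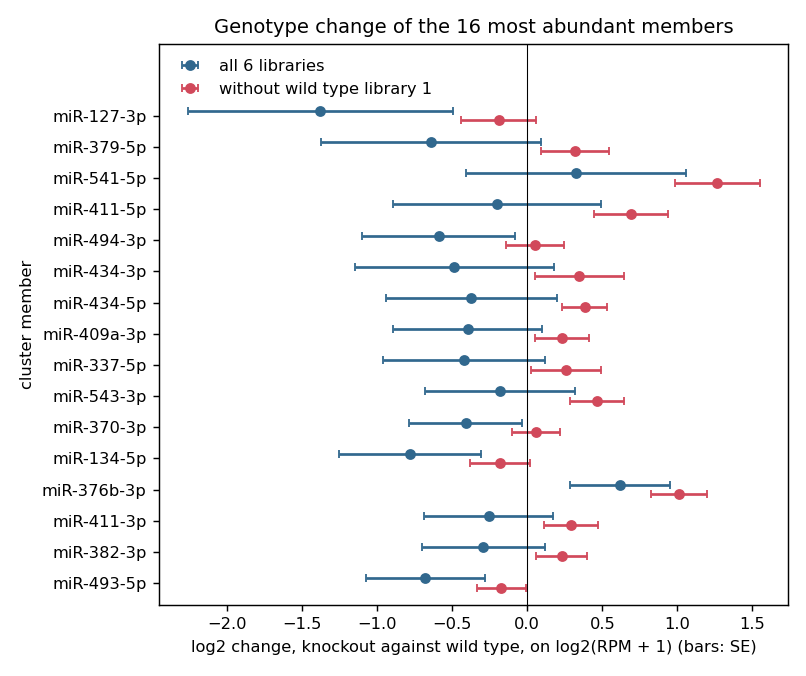
Log2 change of knockout against wild type on log2(RPM + 1) (horizontal; bars are SE) for the 16 most abundant members (vertical), with all 6 libraries in blue and without wild type library 1 in red. Every red point lies to the right of its blue one, from -1.38 to -0.19 for miR-127-3p and from 0.62 to 1.01 for miR-376b-3p. Wild type library 1 was the highest wild type library for each of the 16, so the shift follows from leaving it out.

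Counted by the libraries alone, 3 members had all knockout libraries below all wild type libraries and 0 had them above, where 21.6% and 4.39% of all miRNAs did. The 3 were miR-323-3p (0.80, 0.66 and 0.53 against 0.48, 0.41 and 0.44 RPM), miR-410-3p (0.30, 0.33 and 0.21 against 0.12, 0.10 and 0.11 RPM) and miR-758-3p (0.20, 0.11 and 0.21 against 0, 0.10 and 0 RPM), named after their values were seen. All are levels of a few reads. Against wild type libraries 2 and 3 alone, the same 3 of 62 members were lower and 10 of 62 were higher. Of all 570 miRNAs, 24.2% and 10.7% were. The 10 were miR-376b-3p, miR-379-5p, miR-411-5p, miR-434-5p, miR-541-5p, miR-543-3p, miR-382-3p, miR-431, miR-299a-3p and miR-299b-3p, of which the last pair may share reads. Several of these are also levels of a few reads. miR-431 held 1 and 0 reads in wild type libraries 2 and 3, and 2, 3 and 2 in knockout. Wild type library 2 and knockout library 3 held 20 reads of miR-379-5p each. Wild type library 2 and knockout library 1 held 2 reads of miR-382-3p each. For both miRNAs, only the library totals set these libraries apart.

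The make-up of the cluster was compared as each member's share of the cluster's reads in a library. Of these reads, miR-127-3p took 43.5%, 30.7% and 38.1% in wild type and 21.0%, 24.1% and 20.0% in knockout. All 3 wild type libraries, the one that stood apart included, were above all knockout libraries (37.4 ± 6.4% against 21.7 ± 2.1%, SD, n = 3 each; two-sided exact permutation p = 0.1, adjusted p = 0.4 over 12 members). For miR-541-5p the order was the opposite, with 5.43%, 2.44% and 6.56% in wild type and 10.7%, 11.8% and 13.4% in knockout (exact permutation p = 0.1, adjusted p = 0.4). With 3 libraries against 3 the smallest exact p is 0.1, so neither difference could pass the threshold. miR-434-5p also separated the genotypes (2.32 ± 0.32% against 3.07 ± 0.65%, SD, n = 3 each; exact permutation p = 0.1, adjusted p = 0.4), and the shares of the other 9 members overlapped. These shares were examined after the data were seen, and shares of one whole are not independent of each other.

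**Figure D5:**
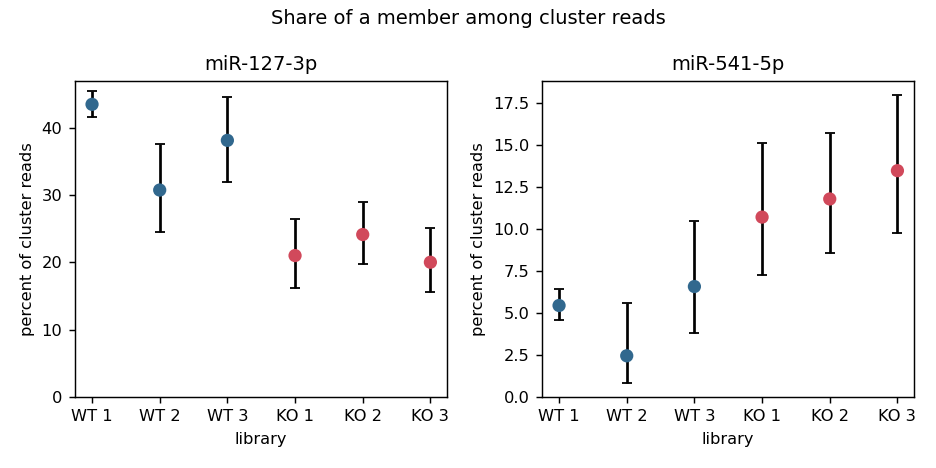
Percent of the cluster's reads (vertical) taken by miR-127-3p (left) and miR-541-5p (right) in each library (horizontal; blue wild type, red knockout), with 95% exact Clopper-Pearson intervals that cover counting error only. The wild type points lie at 30.7% to 43.5% and the knockout points at 20.0% to 24.1% for miR-127-3p, and the order is the opposite for miR-541-5p.

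A hairpin gives a 5p and a 3p arm, of which usually one is kept as the guide strand. Both arms of Mir127 together had a mean above 10 RPM, and its 3p share was 99%, 100% and 96.9% in wild type and 98.2%, 94.3% and 95.1% in knockout (98.6 ± 1.6% against 95.9 ± 2.1%, SD, n = 3 each; exact permutation p = 0.2), with overlap between the genotypes. Of the 13 hairpins with at least 1 RPM, 12 could be compared and each had an adjusted p of 1, in a design that could not pass the threshold. The hairpin left out was Mir376b, which had no reads in wild type library 2. Its 3p share was 75% of 20 reads in wild type library 1 and 66.7% (2 of 3 reads) in wild type library 3, and 100%, 90% and 100% in knockout, without overlap on 10 to 14 reads a library. In wild type library 1, where reads were most numerous, the 3p arm of miR-434 held 90 reads and the 5p arm 64, a 3p share of 58.4% (exact Clopper-Pearson interval 50.2% to 66.3%), and that of miR-379 held 6.64% of 211 reads (3.67% to 10.9%). miR-494 and miR-543 gave 3p reads only, and miR-134 gave 5p reads only, in all 6 libraries.

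Of 16 further miRNAs that RefSeq places in the interval but the fixed list does not hold, 4 were above 0, and 3 are given here after their values were seen. miR-1193-3p, from the distal array, had 1.69, 0 and 0 RPM in wild type and 0.12, 0.31 and 0.44 RPM in knockout, and was thus also highest in wild type library 1. The arms of miR-1247, whose hairpin lies on the minus strand next to Dio3, did not show that pattern. miR-1247-5p had 3.19, 3.18 and 3.17 RPM in wild type and 5.42, 5.61 and 4.78 RPM in knockout, without overlap (log2 change 0.58, SE 0.22, adjusted p 0.19 by limma; adjusted p 0.045 by edgeR). miR-1247-3p had 1.79, 1.75 and 0.53 RPM in wild type and 3.01, 3.36 and 2.45 RPM in knockout, also without overlap (log2 change 0.79, SE 0.29, adjusted p 0.18 by limma; adjusted p 0.072 by edgeR). These fits differ in scaling as well as in test. With TMM scaling, limma gave adjusted p 0.076 for the 5p arm and 0.075 for the 3p arm.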

How the data were processed

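Small RNA of testicles was sequenced as single-end reads of 50 bp on a HiSeq 2500 after the NEBNext small RNA kit, per the labels' protocols. The submitters' processing notes name FastQC, BWA, edgeR and the rn6 build; the treatment of adapters, multiple matches and isomiRs is not stated there. The authors deposited 1 table with the RPM of each miRNA in each library, and their own log2 fold change and p-value per miRNA, which are quoted only where named. From the RPM steps whole reads were recovered (97.8% to 98.9% of values whole within 0.0051 RPM); in wild type library 1 a read is worth 0.0996 RPM, close to a decimal step of the table, so its reads are less certain than its RPM.

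Log2(RPM + 1) was tested with limma 3.58.1 (trend) on all 570 miRNAs above 0, with Benjamini-Hochberg adjustment. edgeR 4.0.16 and DESeq2 1.42.0 on recovered reads, other scalings and pseudocounts, filters, a replicate block and leaving out each library were alternatives. The edgeR fits used TMM scaling and DESeq2 its own size factors, while the main limma fit used RPM without further scaling. Single values were compared by exact permutation. The limma and edgeR fits were tested on simulated data with planted changes of a fixed size, in which no library stood apart. Genomic order and sequences came from RefSeq (GRCr8). The text names members called, the 16 most abundant and their other arms. The members, lists and rules were chosen with earlier results of these data known.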

Additional observations from a re-analysis of the deposited data

How the results depend on the processing

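The number of miRNAs called, 36, was 22 with the replicate number as a block, 61 with edgeR, 72 with DESeq2, 72 with edgeR without wild type library 1, and 5 to 26 with each library left out in turn. Members called, 0, numbered 0 to 1 with each library left out, and, without wild type library 1, 2 with TMM scaling and 3 with edgeR. Deviations of same-numbered libraries correlated at 0.033, 0.176 and 0.204, and those of other pairs at -0.288 to 0.060. Wild type libraries 2 and 3 correlated best with their own number, and wild type library 1 did not. These values do not decide whether the numbers pair the libraries. The block called 0 members. The median log2 change of the members, -0.20, was -1.38 where a mean of at least 10 RPM left 1 member, -1.07 with edgeR, -0.94 with DESeq2 and -0.35 to 0.067 with each library left out; without wild type library 1 it was 0.62 with edgeR and 0.11 with TMM scaling. The log2 ratio of the summed cluster, -1.60, ranged from -2.07 to 0.44 with each library left out, and was above 0 only without wild type library 1.

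Without wild type library 1, 13 of the 24 named members that then had a value changed sign (miR-541-3p had none). Their lowest and highest log2 changes with each library left out were -1.21 and 0.32 for miR-379-5p, -0.80 and 0.69 for miR-411-5p, -0.94 and 0.051 for miR-494-3p, -1.05 and 0.35 for miR-434-3p, -0.79 and 0.38 for miR-434-5p, -0.75 and 0.23 for miR-409a-3p, -0.84 and 0.26 for miR-337-5p, -0.56 and 0.46 for miR-543-3p, -0.72 and 0.058 for miR-370-3p, -0.59 and 0.29 for miR-411-3p, -0.55 and 0.23 for miR-382-3p, -0.35 and 0.19 for miR-127-5p, and -0.34 and 0.23 for miR-409a-5p. In the same order, edgeR without that library gave 0.61, 1.13, 0.23, 0.82, 1.01, 0.63, 0.79, 1.32, 0.27, 1.32, 1.12, 1.09 and 2.11, and TMM scaling without it gave 0.42, 0.79, 0.14, 0.41, 0.44, 0.29, 0.31, 0.52, 0.12, 0.31, 0.26, 0.20 and 0.23.

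miR-541-5p ranged from -0.35 (without wild type library 2) to 1.27 with each library left out and was -0.12 with edgeR and -0.065 with DESeq2. miR-127-5p was 0.065 with a pseudocount of 0.1 and 0.013 without knockout library 1, where miR-409a-5p was 0.031. miR-337-3p ranged from -0.11 to 0.022, the latter without knockout library 3. RLE, TMM and upper quartile scaling, a pseudocount of 5, the block and totals without miR-122-5p changed no sign among the 25 with all libraries kept. The causes were not tested.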

Other observations

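Other miRNAs known from imprinted loci were read in the same libraries, as a set picked after the data were seen: miR-296 and miR-298 (Gnas locus), miR-335 (Mest), miR-483 (Igf2) and miR-675 (H19). Of their 8 arms above 0, wild type library 1 was highest for 4, all of few reads. miR-298-5p had 1.89, 0.22 and 0 RPM in wild type and 0, 0.10 and 0.11 RPM in knockout, and miR-296-3p had 1.00, 0.22 and 0.21 RPM and 0 in all knockout libraries. miR-335, the most abundant of them, was highest in another library, with 32.96, 128.93 and 56.34 RPM in wild type and 29.03, 38.64 and 38.82 RPM in knockout (limma log2 change -0.81, SE 0.44, adjusted p 0.35). None of the 8 was called.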
